A study of Mus musculus with 5 samples.

Results

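Secretin (Sct) and endothelin 3 (Edn3) lead a set of 8 genes of secreted peptides, with ghrelin (Ghrl), cholecystokinin (Cck), gastrin (Gast), the substance P precursor (Tac1), neurotensin (Nts) and vasoactive intestinal peptide (Vip). All 8 are named genes among 36529 gene rows, and all 8 had at least 1 transcript in the data. They were chosen by symbol with their levels by cell type, cluster and library known, so those levels are a description. The data are single-cell RNA-seq libraries (10x Genomics Chromium, which reads the 3′ end of each transcript) of mouse islets and tumors. Tumor cells of mice with a homozygous knockout of the glucagon receptor gene Gcgr gave 3 libraries, called tumor libraries A, B and C (495, 846 and 1084 cells). Islets of a homozygous Gcgr knockout gave 1 library (2843 cells, of which 1525 were typed as alpha cells by the authors). Islets heterozygous for the knockout gave 1 library (1326 cells, 306 of them alpha cells), so all 5 libraries carry the knockout allele. The labels give no age, strain, sex or number of animals for any of them, and no wild-type library was analysed here.

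Peptide hormones are made as precursors, cut by convertases in secretory granules, and released to act on receptors of nearby or distant cells. Secretin, ghrelin, cholecystokinin, gastrin and neurotensin are best known as products of endocrine cells of the gut, while endothelin 3, substance P and vasoactive intestinal peptide are known from nerves, blood vessels and developing tissues. In the islet, alpha cells make glucagon, and in fetal and newborn mouse pancreas ghrelin marks a small endocrine cell type of its own. Gastrin is expressed in the fetal pancreas and is low in the adult islet.

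The targeted gene Gcgr had 0 to 3 UMIs (unique molecular identifiers, each standing for 1 captured transcript) in each tumor library and 0 UMIs in homozygous alpha cells, against 8 UMIs in heterozygous alpha cells (2.49 CPM, UMIs of the gene per 1000000 UMIs). The glucagon gene Gcg, which defines alpha cells, stood at 284170 to 364264 CPM in the tumor libraries, 326369 CPM in homozygous alpha cells and 339537 CPM in heterozygous alpha cells. Median depth per kept cell was 19378.5 to 26091.5 UMIs in tumor libraries, 10961 in the homozygous islets and 15017 in the heterozygous islets. Among alpha cells the order was reversed, with 14086 UMIs in homozygous and 10002.5 in heterozygous alpha cells. Levels are CPM of the summed UMIs of the named cells, with exact Poisson 95% intervals that cover counting error only.

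Markers of other cells were present at unequal levels in the tumor cells and islet alpha cells, together called alpha-like cells. Of 8 beta cell markers, 4, 6 and 7 were detected in tumor libraries A, B and C, 8 in homozygous alpha cells and 7 in heterozygous alpha cells. They summed to 4.36, 99.3 and 3323 CPM in the tumor libraries, to 11489 CPM in homozygous alpha cells and to 55516 CPM in heterozygous alpha cells. The 7 acinar cell markers summed to 12.1, 2.83 and 145.1 CPM in the tumor libraries, 134.0 CPM in homozygous alpha cells and 2.49 CPM in heterozygous alpha cells. The 4 gut endocrine markers, of which 2 or 3 were detected, summed to between 51.3 and 64.9 CPM in the tumor libraries, 70.1 CPM in homozygous alpha cells and 43.8 CPM in heterozygous alpha cells. Most of each sum was Fev, also listed below as an endocrine transcription factor, at 43.5 to 67.8 CPM. Tph1 stood at 7.53, 19.6 and 11.7 CPM in tumor libraries A, B and C. It had 2.26 CPM in homozygous and 0 UMIs in heterozygous alpha cells. The part of all these markers in the results was not tested.

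The promoters of Sct and Edn3 are shown because these members lead the set and their levels ran in opposite directions between the genotypes. Each is 300 bases, 250 before and 50 after the RefSeq gene start (GRCm38.p6), printed 5′ to 3′ along the gene. Capitals mark E-boxes (CANNTG, the same on both strands) and GC boxes (GGGCGG or, on the other strand, CCGCCC).
Sct, chr7:141279084-141279383, minus strand: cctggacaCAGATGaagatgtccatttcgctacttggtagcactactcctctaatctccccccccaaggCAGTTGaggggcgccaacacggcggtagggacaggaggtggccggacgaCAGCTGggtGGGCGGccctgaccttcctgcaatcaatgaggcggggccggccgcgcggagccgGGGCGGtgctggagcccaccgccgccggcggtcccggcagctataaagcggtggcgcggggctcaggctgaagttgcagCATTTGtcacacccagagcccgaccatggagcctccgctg
Edn3, chr2:174760369-174760668, plus strand: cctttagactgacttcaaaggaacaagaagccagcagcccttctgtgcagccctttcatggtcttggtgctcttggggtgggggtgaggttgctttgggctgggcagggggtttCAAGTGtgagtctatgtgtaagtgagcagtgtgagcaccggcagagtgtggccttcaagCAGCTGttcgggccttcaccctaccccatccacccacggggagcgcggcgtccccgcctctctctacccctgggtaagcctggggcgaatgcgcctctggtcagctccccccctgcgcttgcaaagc
The Sct window held 4 E-boxes, 2 GC boxes and 1 TATA box (TATAAA or TTTATA). The Edn3 window held 2 E-boxes, no GC box and no TATA box. Of 32851 mouse promoters of this length, 72.3% held an E-box, 35.7% a GC box and 13.6% a TATA box, so an E-box is common. The cyclic AMP response element TGACGTCA was in neither window and in 1.79% of all promoters. Among the members, Ghrl alone overlaps other annotated genes (2, both on the other strand), so its reads could not be told from theirs unless strand was used in counting, which no label or file header states.

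Sct, the founding hormone of the secretin family, was the most abundant member in the tumors and in homozygous alpha cells. It stood at 99.1 CPM (93.1 to 105.5) in tumor library A, 85.8 (82.0 to 89.7) in tumor library B and 148.1 (143.0 to 153.3) in tumor library C, a mean of 111.0 ± 32.8 CPM (SD, n = 3). Homozygous alpha cells held it at 50.7 CPM (47.8 to 53.7), and heterozygous alpha cells at 1.55 CPM (0.505 to 3.63), from 5 UMIs. All 3 tumor libraries lay above both alpha cell groups. In homozygous islets beta cells (461) and delta cells (332) held little of it, with 3.74 CPM (2.31 to 5.72) in beta cells and 6.95 CPM (4.45 to 10.3) in delta cells. Homozygous endothelial cells, which should lack it, had 1 UMI (1.77 CPM). After each cell was thinned to 5000 UMIs, a Sct UMI was found in 32.8%, 33.5% and 42.1% of the cells in tumor libraries A, B and C, in 18.6% of homozygous alpha cells (16.7 to 20.8) and in 0 of 259 heterozygous alpha cells, which allows a share of up to 1.16% of cells with a UMI at this depth. Beta cells had 2.12% (0.975 to 3.99) in homozygous and 0.147% in heterozygous islets. Median depth was 14086 UMIs in homozygous alpha cells and 10854 in homozygous beta cells. Without thinning the tumor shares were 68.5%, 80.6% and 69.2%, the homozygous alpha share 33.7% and the heterozygous alpha share 1.31%.

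Edn3, a ligand of the endothelin receptors, ran the other way. It stood at 9.12 CPM (7.35 to 11.2), 4.03 (3.24 to 4.94) and 13.4 (11.9 to 15.0) in tumor libraries A, B and C, and at 6.36 CPM (5.36 to 7.50) in homozygous alpha cells. In heterozygous alpha cells it reached 83.3 CPM (73.7 to 93.9). The 3 tumor libraries lay on both sides of homozygous alpha cells and all lay below heterozygous alpha cells. In beta cells it had 0.712 CPM in homozygous and 1.16 CPM in heterozygous islets. Delta cells held 6.66 CPM (4.22 to 10.00) in homozygous islets and 6.69 CPM (1.38 to 19.5) in heterozygous islets, from 23 and 3 UMIs, and a difference was not detectable at this depth. After thinning, an Edn3 UMI was found in 4.38%, 2.02% and 6.46% of the cells in tumor libraries A, B and C, in 2.66% of homozygous alpha cells (1.89 to 3.64) and in 31.7% of heterozygous alpha cells (26.0 to 37.7). Beta cells had 0.472% in homozygous and 0.588% in heterozygous islets. Without thinning the shares were 12.3%, 7.57% and 19.1% in the tumor libraries, 6.43% in homozygous alpha cells and 45.1% in heterozygous alpha cells.

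**Figure D1:**
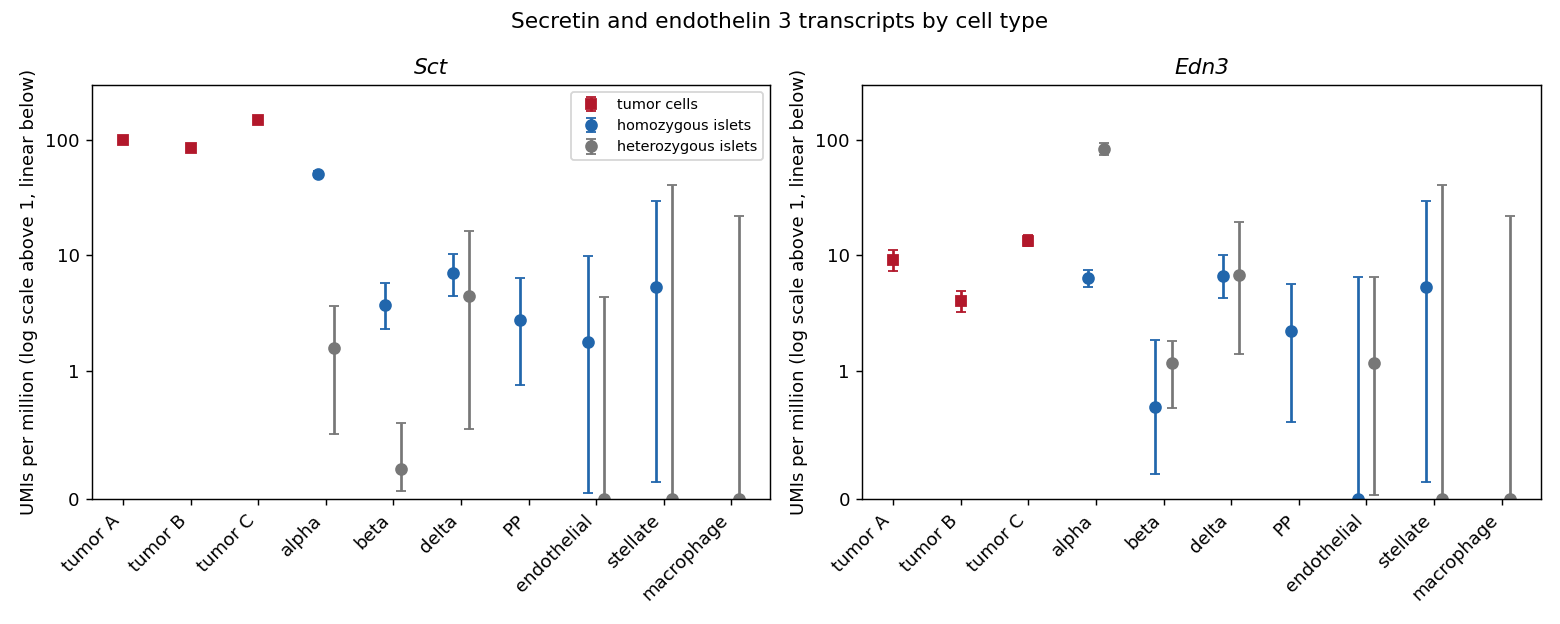
CPM of Sct (left) and Edn3 (right) in each tumor library and in each cell type of the homozygous and heterozygous islets with 20 or more cells; bars are exact Poisson 95% intervals, and the axis is logarithmic above 1 and linear below. Sct is high in tumors and homozygous alpha cells (50.7), and Edn3 in heterozygous alpha cells (83.3).

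Ghrl, the precursor of the appetite hormone ghrelin, stood at 2.48, 4.47 and 7.44 CPM in tumor libraries A, B and C, at 8.89 CPM (7.69 to 10.2) in homozygous alpha cells and at 2.18 CPM (0.875 to 4.49) in heterozygous alpha cells. A single homozygous alpha cell carried 116 of the 197 Ghrl UMIs there, and without it the level was 3.66 CPM. The tumor libraries all lay below homozygous alpha cells with that cell and on both sides of them without it. Cck, which encodes a gut hormone of digestion and satiety, stood at 6.05, 3.94 and 17.6 CPM in the tumor libraries, at 5.69 CPM (4.74 to 6.77) in homozygous alpha cells and at 0.311 CPM in heterozygous alpha cells, from 1 UMI. The tumor libraries lay on both sides of homozygous alpha cells for Cck, and all above heterozygous alpha cells.

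Gast, the precursor of the acid-stimulating hormone gastrin, was found in every group of tumor and alpha cells. Its levels were 11.1, 12.1 and 13.6 CPM in tumor libraries A, B and C (mean 12.3 ± 1.25 SD, n = 3), 8.84 CPM (7.65 to 10.2) in homozygous alpha cells and 6.84 CPM (4.29 to 10.4) in heterozygous alpha cells. All 3 tumor libraries lay above both alpha cell groups, but the interval of tumor library A (9.14 to 13.4) overlapped that of homozygous alpha cells. Gast also stood at 10.7 CPM (7.55 to 14.8) in homozygous delta cells. Its highest level in any cluster of 20 or more cells was 31.4 CPM (14.4 to 59.6), from 9 UMIs in 7 of the 28 cells of the authors' homozygous islet cluster 2.7.

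Tac1, Nts and Vip were rare. Tac1, the precursor of substance P and neurokinin A, had 9, 5 and 70 UMIs in tumor libraries A, B and C, 1 UMI in homozygous alpha cells and 0 in heterozygous alpha cells, where 0 allows up to 0.933 CPM. Nts, the precursor of neurotensin, had 1, 1 and 116 UMIs in the tumor libraries, 1 in homozygous alpha cells and 0 in heterozygous alpha cells. Tumor library C thus held 116 of the 119 Nts UMIs of all 6594 kept cells. Vip had 0 UMIs in the tumor libraries and 5 UMIs in all kept cells. For each member except Vip, 93.0% or more of its UMIs lay in alpha-like cells. All tumor cells count as alpha-like, and the share of all genes' UMIs in alpha-like cells is not given. Nothing is read from these shares.

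**Figure D2:**
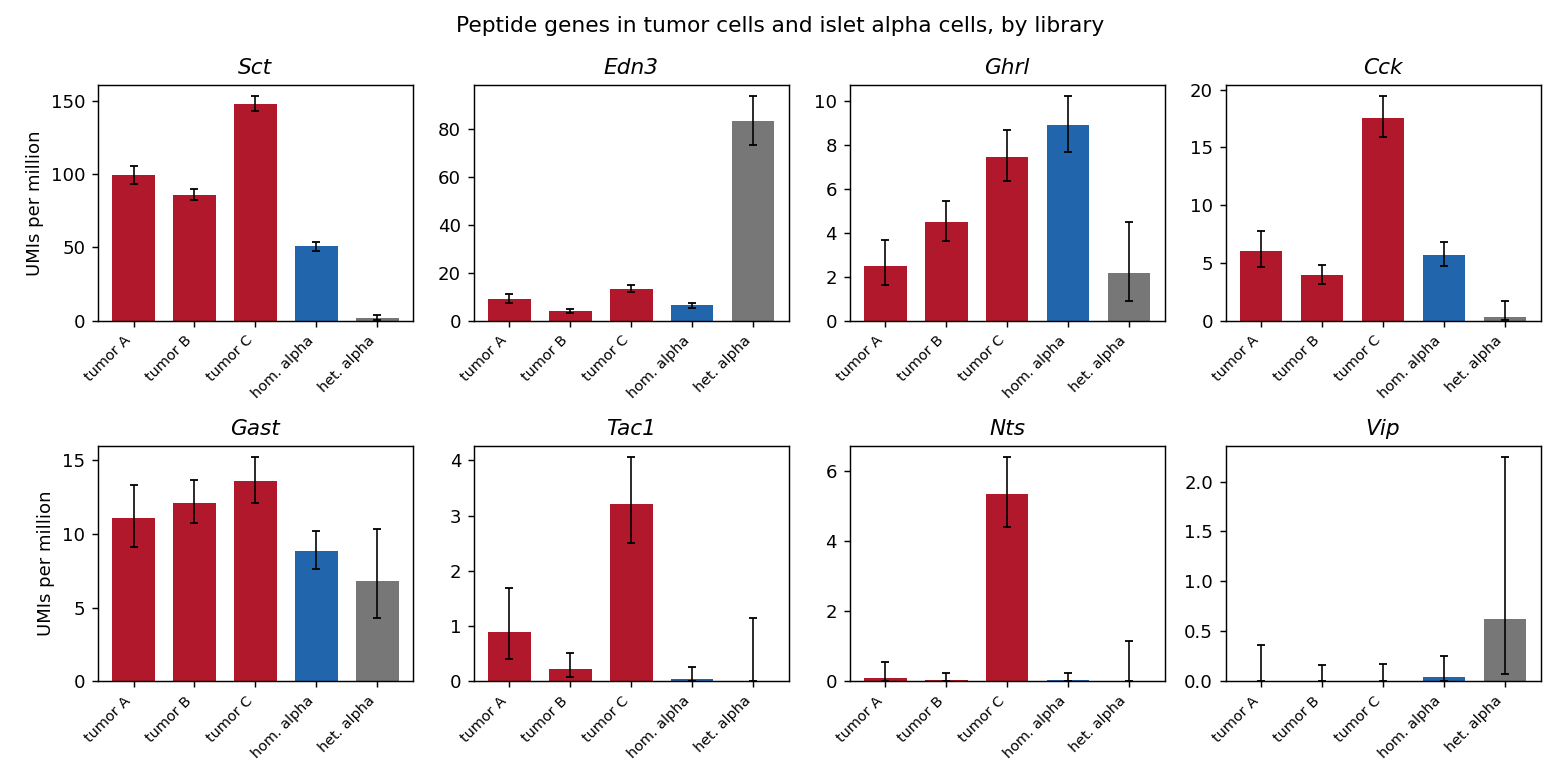
CPM of each peptide gene in tumor libraries A, B and C (red), homozygous alpha cells (blue) and heterozygous alpha cells (grey), with exact Poisson 95% intervals; each panel has its own linear axis. Sct is lowest and Edn3 highest in heterozygous alpha cells, and Nts and Tac1 stand out in tumor library C (5.33 and 3.22).

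The genotype ratio in alpha cells rests on 1 library each and has no test. Sct stood 32.6 times higher in homozygous than in heterozygous alpha cells (13.9 to 100.6), Cck 18.3 times (3.22 to 728) and Ghrl 4.08 times (1.95 to 10.3). The Ghrl ratio was 2.35 (0.967 to 7.43) without the cell with the most Ghrl UMIs in each library. Edn3 had a ratio of 0.0763 (0.0618 to 0.0940) and Gast one of 1.29 (0.830 to 2.11). An interval wholly above 1.5-fold was found for 3 members and one wholly below its inverse for 1 member, against 2.00% and 11.5% of the 13327 genes with 20 or more UMIs. The members were chosen from this ratio, so nothing is read from that count. In beta cells Sct had a ratio of 16.1 (5.45 to 64.7), at 3.74 CPM in homozygous and 0.232 CPM in heterozygous islets. Gcg, an alpha cell transcript, stood at 18842 CPM in homozygous and 5214 CPM in heterozygous beta cells, and its part in the Sct ratio was not tested.

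Few cells carried much of some peptides. Ranked by their UMIs, the top 5 cells held 78.7% of Ghrl UMIs in homozygous alpha cells and 51.9% in tumor library C. In tumor library C they held 71.4% of Tac1 and 52.6% of Nts UMIs, against 4.71% of Sct and 7.53% of Edn3 UMIs. Among alpha-like cells, 477 had 5 or more Sct UMIs, 30 had 5 or more of Cck, 13 of Edn3, 12 each of Ghrl and Gast, and 7 each of Tac1 and Nts. The 12 cells rich in Ghrl all held Gcg at 239765 CPM or more, and the 7 cells rich in Nts, all from tumor library C, at 238505 CPM or more. These cells were taken from alpha-like cells only, so a high Gcg level follows from that choice. Median Gcg per alpha-like cell was 282044 to 361178 CPM by library. Of the 30 cells rich in Cck, 7 also had 5 or more Sct UMIs. Tumor library C held 19 of the 30, and 260 of all its 1084 cells had 5 or more Sct UMIs. Nothing is read from that overlap.

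**Figure D3:**
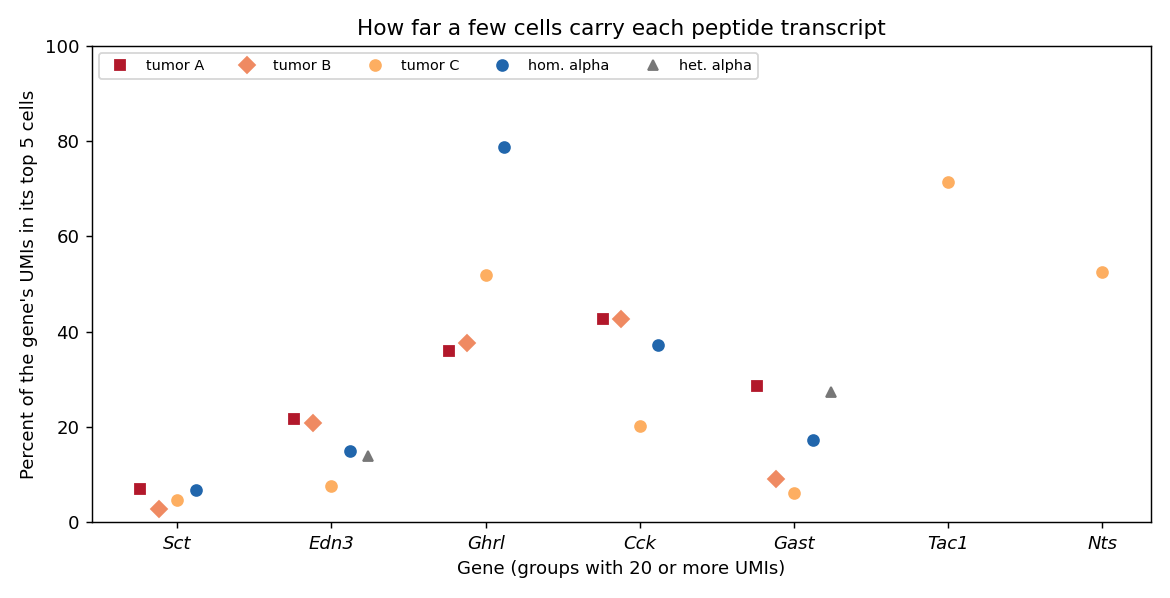
Percent of each gene's UMIs that lay in the 5 cells with the most of them, in each tumor library and in islet alpha cells, for groups with 20 or more UMIs of the gene. Ghrl in homozygous alpha cells (78.7) and Tac1 in tumor library C (71.4) are the most concentrated.

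Within single libraries the authors' clusters differed in these genes; the clusters were made from the same cells, so their values are a description. In tumor library C, cluster 2 (697 cells) held Sct at 219.0 CPM (211.2 to 227.0) and cluster 4 (385 cells) at 31.7 CPM (28.0 to 35.8). Cluster 2 also held 114 of the 116 Nts UMIs and 66 of the 70 Tac1 UMIs of that library. Cck stood at 23.2 CPM in cluster 2 and 8.38 CPM in cluster 4. Edn3 and Ghrl were the higher ones in cluster 4, with 17.3 and 12.8 CPM against 11.1 and 4.21 CPM in cluster 2. Among homozygous alpha cells, cluster 2.1 (947 cells) held Sct at 71.8 CPM and cluster 2.2 (563 cells) at 13.0 CPM. Edn3 stood at 8.38 CPM in cluster 2.1 and 2.81 CPM in cluster 2.2, and Gast at 12.0 CPM in cluster 2.1 and 3.32 CPM in cluster 2.2. Sct and Edn3 thus ran in the same direction between the clusters of homozygous alpha cells and in opposite directions between those of tumor library C.

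**Figure D4:**
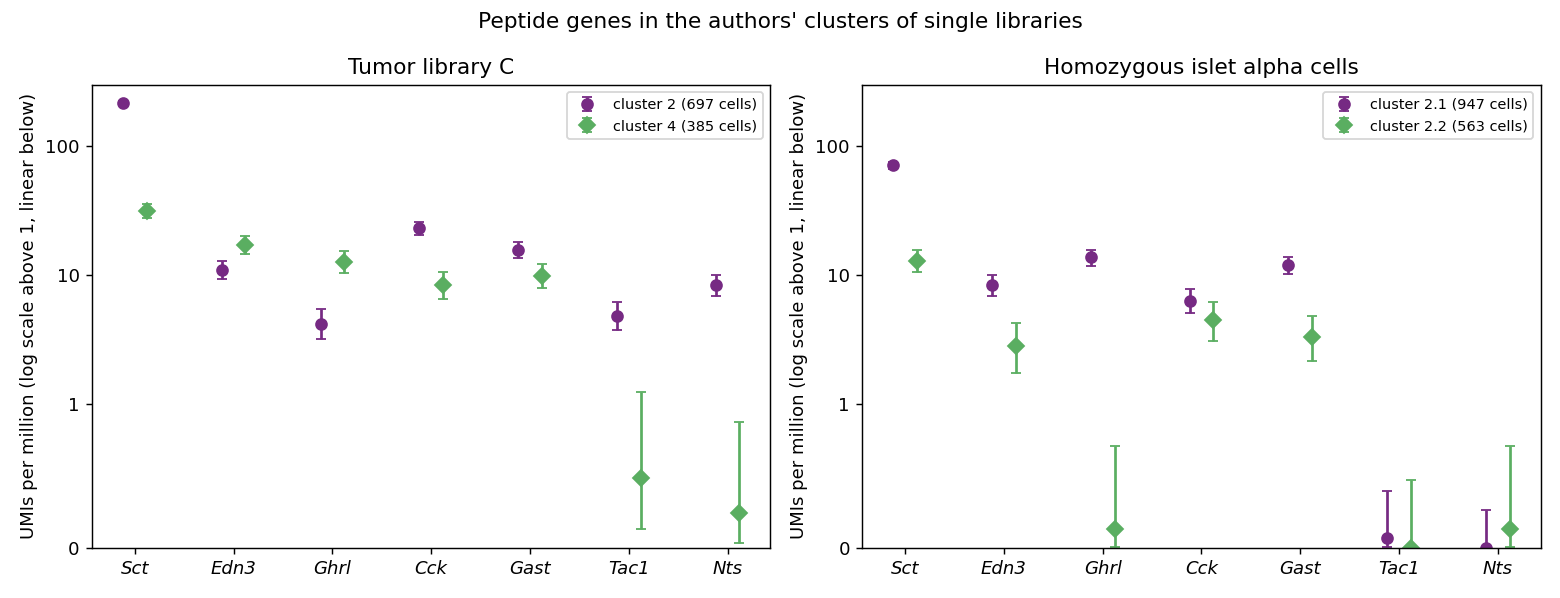
CPM of the peptide genes in clusters 2 and 4 of tumor library C (left) and in the alpha cells of clusters 2.1 and 2.2 of the homozygous islets (right), with exact Poisson 95% intervals on an axis that is logarithmic above 1 and linear below. Sct is higher in cluster 2 than in cluster 4 (219.0 and 31.7) and Nts stands at 8.43 and 0.243 in the same clusters.

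Tumor cells were compared with islet alpha cells to ask which genes set the tumors apart (limma on log2(mean CPM over cells + 1), 3 tumor libraries against the alpha cells of 2 islet libraries). In the fit 2.08% of 10233 genes were higher and 0.137% lower in tumors at an adjusted p under 0.05, and the median gene was higher by 0.25 (log2). Of the 5 members with 5 CPM in 2 libraries, none passed, and Tac1, Nts and Vip were too low to be tested. Sct had a log2 change of 3.52 ± 1.13 (SE, adjusted p = 0.135), with 96.2, 88.4 and 160.2 mean CPM in tumors and 50.3 and 0.856 in homozygous and heterozygous alpha cells. Edn3 had -1.51 ± 0.94 (adjusted p = 0.396), Cck 1.57 ± 0.78 (adjusted p = 0.289), Gast 0.57 ± 0.27 (adjusted p = 0.263) and Ghrl 0.10 ± 0.55 (adjusted p = 0.940). Sct and Gast lay above both islet values in every tumor library, as did 33.7% of the genes tested, and no member lay below both in every tumor library, as did 5.60%. Every tumor library came from the tumor table and every islet library from the islet tables. A tumor difference therefore cannot be told apart from a difference in tissue, preparation or batch, for the members and for the lists below. The islet arm mixes genotypes. The change of Sct was 5.91 against heterozygous and 1.12 against homozygous alpha cells alone, and that of Edn3 was -3.34 and 0.33. Each of these islet arms is 1 library, and the 2 islet values had served to choose the members, so these values are a description with no test. The main fit used the same 2 islet values, and the tumor levels were known too. Its adjusted p for the members is therefore also a description. The 227 genes called became 33 without tumor library A and 87 without tumor library C, whose stored name has another prefix than those of A and B, with a meaning that is not given. Without tumor library C the change of Sct was 3.26 (adjusted p = 0.256).

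Of the other lists, 1 gene of 12 tested peptide genes fell in tumors, Ppy, the precursor of pancreatic polypeptide (-5.74 ± 0.92, adjusted p = 0.0285). It stood at 2349, 275.5 and 540.3 CPM in tumor libraries A, B and C, 76625 CPM in homozygous and 16006 CPM in heterozygous alpha cells. Of 17 tested immediate early genes 6 rose, among them Egr2 (adjusted p = 0.00474), Fosl2 (4.35 ± 0.35, adjusted p = 0.00494), Nr4a1 (3.12 ± 0.42) and Ier3 (1.95 ± 0.29). Egr2 stood at 33.0, 19.8 and 42.9 CPM in tumor libraries A, B and C and had 0 UMIs in homozygous and in heterozygous alpha cells. Of 19 tested endocrine transcription factors 1 rose, Ets2 (2.16 ± 0.34, adjusted p = 0.0285). None of 10 genes of the Slc38a5-high alpha cell state, a list chosen on these samples, passed. Neither of 2 tested receptors nor any of 14 tested genes of peptide processing passed. The list medians were -0.22 for other peptides, 1.90 for immediate early genes, 0.15 for endocrine transcription factors, 0.21 for receptors, 1.98 for the Slc38a5-high state and -0.10 for processing, beside 0.25 for all genes. Over 16 other settings Egr2 and Fosl2 passed in 16, Nr4a1 in 11, Ppy in 9, and Ier3 and Ets2 in 8 each. With edgeR the adjusted p of Ppy was 0.105 and that of Ets2 0.0831, and without tumor library A that of Nr4a1 was 0.0577, of Ier3 0.0522 and of Ets2 0.0714.

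Receptors for these peptides were low in alpha-like cells with 2 exceptions. Vipr1, a receptor for vasoactive intestinal peptide, stood at 41.6, 32.8 and 29.8 CPM in tumor libraries A, B and C, at 24.3 CPM in homozygous and 29.5 CPM in heterozygous alpha cells. Sort1, which encodes sortilin and binds neurotensin, stood between 23.0 and 36.9 CPM in the tumor libraries, at 22.5 CPM in homozygous and 36.1 CPM in heterozygous alpha cells. The secretin receptor gene Sctr lay at or below 0.177 CPM in every tumor library and had 0 UMIs in the alpha cells of both islet libraries. Ednrb, a receptor of endothelin 3, was highest in endothelial cells, with 651.8 CPM in homozygous and 446.1 CPM in heterozygous islets. Ghsr, the ghrelin receptor, was found in delta cells at 4.64 CPM in homozygous and 6.69 CPM in heterozygous islets. Mboat4, whose enzyme adds the fatty acid that active ghrelin needs, lay at or below 0.597 CPM in tumor and alpha cells. Pcsk1, a convertase of peptide precursors, stood at 0.496, 0.487 and 34.8 CPM in tumor libraries A, B and C.

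Cells with a Sct UMI were then set against cells without one in the same library, after thinning to 5000 UMIs (tumor libraries A, B and C and homozygous alpha cells, limma with library as a block, Sct left out). Of 10683 genes, 0.122% were higher and 0.0749% lower in Sct-positive cells at an adjusted p under 0.05, which is 21 genes, 13 higher and 8 lower. With another random draw in the thinning 1 gene passed, and with no thinning none did, so which genes are called depends on the draw. Mt1, a metallothionein, was the gene that passed in both draws (log2 change -1.25 ± 0.18, adjusted p = 0.00271, and -1.11, adjusted p = 0.0449). All 21 genes kept their direction with the other draw. Without tumor library A 1 gene passed, which was none of the 21. Without tumor library C 13 passed, 8 of them among the 21, and without the homozygous islets 6, all among the 21. No other peptide of the set passed. Edn3 had a change of 0.24 ± 0.26 (adjusted p = 0.842), Gast 0.11 ± 0.21, Cck 0.13 ± 0.27 and Nts 0.01 ± 0.44. Ghrl had -0.83 ± 0.31 (adjusted p = 0.523), lower in 4 of 4 libraries, but the value was 0.20 with the other draw.

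Genes that were higher in Sct-positive cells in all 4 libraries included Cenpw, a centromere protein gene (0.78 ± 0.14, adjusted p = 0.0151), Cks1b, a cell cycle kinase subunit (0.75), Grb10, an imprinted adaptor of growth factor receptors (0.59), and the amino acid transporter Slc38a5 (0.47). Those that were lower included Mt1, the insulin gene Ins1 (-0.98), Ppy (-0.94) and the immediate early genes Atf3 (-0.84) and Fosb (-0.68). With the other draw their adjusted p was 0.302 or higher, except for Mt1. The size of the change differed by library. Ins1 had -0.046 in homozygous alpha cells and -1.89 in tumor library C. Its change of -1.16 in tumor library A came from 0 CPM in Sct-positive and 1.24 CPM in Sct-negative cells, values near the floor. Ppy had -0.0083 in tumor library B and -1.58 in homozygous alpha cells. The classes differed in cluster, since in tumor library C 58.7% of the cells of cluster 2 and 12.3% of those of cluster 4 were Sct-positive. Within single clusters of tumor library C and the homozygous islets, a setting chosen after seeing the data, the change was 0.34 for Grb10 (adjusted p = 0.394), 0.29 for Slc38a5 (adjusted p = 0.0408) and -0.35 for Ppy (adjusted p = 0.486). There Cenpw (adjusted p = 0.0970) and Cks1b (adjusted p = 0.204) did not pass either, while Mt1, Ins1, Atf3 and Fosb did. By list, 1 peptide gene of 13 tested rose, Cartpt, an appetite-related neuropeptide precursor (1.04 ± 0.20, adjusted p = 0.0243, and 0.668 with the other draw), and 1 fell, Ppy. Of 10 genes of the Slc38a5-high state 1 rose, Slc38a5. Of 17 immediate early genes 3 fell, Atf3, Fosb and Egr1 (-0.59), with a list median of -0.23 beside 0.06 for all genes. Within single clusters Egr1 had -0.38 (adjusted p = 0.204). TMM scaling gave 4 higher and 10 lower, and edgeR 30 higher and 29 lower. Over 15 other settings Mt1 passed in 11 and the other named genes in 4 to 7, none with a change of sign. These settings are not independent: each one in which a named gene other than Mt1 passed used the same draw as the reported fit. At 2000 UMIs, with no thinning and with 2 UMIs or more as positive, no named gene passed.

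Cells with an Edn3 UMI were set against the others in the same way. None of 11334 genes passed (0% higher and 0% lower), with 465 at an unadjusted p under 0.05, in tumor libraries A and C and the alpha cells of both islets. Tumor library B was left out for its 17 positive cells. Positive cells numbered 21 and 69 in tumor libraries A and C, 38 among homozygous and 82 among heterozygous alpha cells. With so few cells, smaller changes could be missed. edgeR called 12 genes, and with another random draw, in which tumor library A also fell out with 17 positive cells, limma called 0. The change of Sct was 0.25 ± 0.31 (adjusted p = 0.921). Edn3 was found in 4.46%, 2.84% and 5.33% of the Sct-positive cells in the 3 tumor libraries A, B and C and in 4.35%, 1.61% and 7.28% of the Sct-negative cells. In homozygous alpha cells it was found in 4.14% of Sct-positive and 2.33% of Sct-negative cells.

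Over 16 cell groups (each tumor library and each authors' cell type with 20 or more cells), the genes whose log2(CPM + 1) ran most like that of Sct were Cd2 (Pearson r = 0.954), Slc38a5 (0.944), Cnih2 (0.942), Nme1 (0.926), Dapl1 (0.917) and Eef1a2 (0.916), among 11053 genes. For Edn3 they were Ndst4 (0.846), Krt10 (0.828), Igsf21 (0.810), LOC102637235 (0.806), Gpr85 (0.804) and Wnk3 (0.792). Sct and Edn3 had an r of 0.482 with each other. The groups of a library share its preparation, and these values are a description.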

How the data were processed

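The deposited values are a signal, UMIs scaled by the authors to a common total per cell (9936 in the islet tables, 12219 in the tumor table), per the file headers and the values. The deposited cell totals are counts. The submitters' processing notes name CASAVA 1.8, bcl2fastq 2.17, GSNAP and GRCm38. Undoing the scaling gave whole UMIs for 100.0% of values above 0, within 0.01. Cells needed 1000 UMIs and 500 genes, which all met. Scrublet (scanpy 1.11.5, expected rate 0.06) called 18, 9 and 15 doublets in tumor libraries A, B and C, 1 in the homozygous and 8 in the heterozygous islets, and these were removed. The homozygous count is too low to show that the caller worked there. Cell names are not barcodes, so shared barcodes could not be counted; 0 names were repeated.

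Tumor libraries carry letters because the samples' numbers could not be matched to the libraries in the table. The main test was limma 3.58.1 (trended prior, R 4.3.3) with Benjamini-Hochberg adjustment at 0.05 on log2(CPM + 1), with a filter of 5 CPM in 2 libraries or class sums. edgeR 4.0.16 and DESeq2 1.42.0 ran on recovered UMIs as alternatives, and edgeR called 18 genes in the tumor comparison. Fold changes understate the change of genes near 1 CPM. With few libraries limma draws much of a gene's variance from all genes. Nothing shows that the libraries came from separate animals, so p-values measure the spread between libraries. Positive cells had 1 UMI or more after thinning to 5000 UMIs, and a library needed 20 cells in each class. Fits were tested on simulated data, where the tumor comparison had a larger share of false calls than its threshold allows. Named genes were the members, up to 10 genes each way that passed with the same direction in each library and 50 CPM in 1 class, and up to 4 that passed per list; some genes that met this rule are not reported here. The members and lists were chosen with earlier results of these data known. Intervals are exact at 95%, and a count of 0 was given a limit of 3 counts. Promoters are from RefSeq (GRCm38.p6), matched by symbol for all 8 members.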

Additional observations from a re-analysis of the deposited data

Results flagged for a closer look

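Ghrl had genotype ratios on opposite sides of 1 in 2 cell types. Its homozygous over heterozygous ratio was 4.08 (1.95 to 10.3) in alpha cells and 0.401 (0.0771 to 1.33) in beta cells. The interval in beta cells includes 1, each genotype had 1 library, and the difference between cell types was not tested. Of the 197 Ghrl UMIs in homozygous alpha cells, 116 lay in 1 cell. No group had 4 samples, so no sample was tested for standing apart from its group.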

How the results depend on the processing

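Tumor and islet libraries were not paired, because no label ties a tumor library to an islet library. The positive against negative fits were paired within library. Against 227 genes in the tumor comparison (213 higher, 14 lower), 6 passed with no filter on low values, 40 with TMM scaling (35 higher, 5 lower), 18 with edgeR, 670 with DESeq2 (400 higher, 270 lower), 13 against homozygous and 38 against heterozygous alpha cells alone, where the lone islet library is assumed to vary like the tumors. Leaving out a library gave 13 (without the heterozygous islets) to 152 (without tumor library B). The cause was not tested. The median change of all genes was 0.25 in the reported fit and 0.05 under TMM scaling. Edn3 turned to 0.33 against homozygous alpha cells alone. Ghrl turned to -0.089 with TMM, -0.044 with summed UMIs, -0.72 with edgeR, -0.69 with DESeq2 and -0.45 against homozygous alpha cells alone. Leaving out a library gave Edn3 from -3.34 to 0.33 and Ghrl from -0.45 to 0.48.

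Against 21 genes in Sct-positive cells, 0 passed at 2000 UMIs, with no thinning and with 2 UMIs or more as positive (531, 1308 and 686 at an unadjusted p under 0.05), 1 with another draw, 59 with edgeR, and 13 in single clusters. With levels from all UMIs 35 passed (31 higher, 4 lower), and 1 with the other draw. Leaving out a library gave 1 (without tumor library A) to 24 (without tumor library B), with 13 without tumor library C and 6 without the homozygous islets. Of the members tested, none was called in any of these settings, but signs turned. Cck had -0.92 at 2000 UMIs, -0.056 with no thinning, -0.034 with another draw, -0.039 with edgeR, -0.10 with 2 UMIs or more and -0.036 to 0.26 with a library left out. Gast had -0.58 at 2000 UMIs, -0.094 in single clusters and -0.0017 to 0.27 with a library left out. Nts had -0.11 at 2000 UMIs, -0.012 with TMM, -0.059 with edgeR and -0.20 in single clusters. Ghrl had 0.62 with no thinning, 0.20 with another draw and 0.37 with levels from all UMIs in that draw.

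Against 0 genes in Edn3-positive cells, 673 passed at 2000 UMIs (15 higher, 658 lower), where 2 libraries were left, 3 with no thinning, 12 with edgeR and 1 with levels from all UMIs in either draw. Leaving out a library gave 0 to 0. Sct turned to -0.19 with another draw, which also left out tumor library A (0.46 in the reported fit), -0.024 with TMM, -0.15 with edgeR and -0.047 to 0.53 with a library left out. Ghrl (0.25) and Cck (0.13) turned at 2000 UMIs and Gast (0.17) with no thinning. Defining Edn3-positive by 2 UMIs or more left 1 library and was not run. Of the genotype ratios, 4 members lay outside 1.5-fold under each scaling and with doublets kept, and 3 without the top cell of each library. The alternatives chosen after seeing the data were single clusters, a 20 CPM filter, heterozygous alpha cells alone, levels from all UMIs and leaving out the top cell. Depth limits Tac1, Nts and Vip in islets, where 3 UMIs are 0.933 CPM in heterozygous and 0.135 CPM in homozygous alpha cells.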

Other observations

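Cartpt stood at 30.2, 14.8 and 175.6 CPM in tumor libraries A, B and C, at 20.4 CPM in homozygous alpha cells and at 2.18 CPM in heterozygous alpha cells. Tumor library C was also the highest of the 3 tumor libraries for Pcsk1 and for each of the 7 peptide genes of the set detected in tumors. The share of all genes that were highest in tumor library C is not given, so nothing is read from that count. For Gast the intervals of tumor libraries A (9.14 to 13.4) and C (12.1 to 15.2) overlapped. Pdyn, the precursor of dynorphin, was highest in delta cells, at 120.2 CPM in homozygous and 58.0 CPM in heterozygous delta cells, and Gip, the precursor of a gut incretin, was found at 8.69 CPM in homozygous delta cells, with 0 UMIs in heterozygous delta cells, which allows up to 6.69 CPM. Penk, the precursor of enkephalins, was highest in stellate cells, at 921.0 CPM in homozygous and 1622 CPM in heterozygous islets. These genes were picked after their values were seen.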
